A study of Caenorhabditis elegans with 2 samples.

Results

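The genes described are 9 chaperone genes of Caenorhabditis elegans: cct-1, cct-2, cct-4, cct-5, cct-6, cct-7, cct-8, hsp-60 and hsp-90. They were taken by name from the 19973 protein-coding genes of the nuclear chromosomes in the Ensembl annotation of WBcel235, and all 9 were found. For each gene, every deposited region was collected whose summit lay between 2000 bp upstream of the annotated gene start and the gene end. No measured value entered that choice of window, but the genes were listed with earlier results of these data known.

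The sites of ZTF-3, a zinc finger protein, were mapped by chromatin immunoprecipitation followed by sequencing (ChIP-seq). The animals were strain OP614, unc-119(tm4063) with the integrated transgene wgIs614, which carries ztf-3 fused to TY1, EGFP and 3xFLAG together with unc-119(+). All animals were mixed-sex young adults of 58 h, synchronised by L1 starvation after bleaching, and an antibody to GFP was used for precipitation. The only group holds 2 samples, labelled biological replicates 4 and 5, so there is no second condition, and no untagged strain was analysed here. Chromatin came from whole worms, so binding in different tissues cannot be told apart, and the tagged protein came from a transgene.

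Chaperones help other proteins reach and keep their folded state. The CCT chaperonin, encoded by the cct genes, is a large ring-shaped complex of the cytosol in which each gene supplies a different subunit, and actin and tubulin are its best known substrates. HSP60 is the related chaperonin of the mitochondrial matrix and works with the small lid protein HSP10. HSP90 is a dimeric chaperone that acts late in the folding of kinases, receptors and other client proteins, together with a set of co-chaperones. In many animals the heat shock factor HSF1 raises transcription of such genes under stress through heat shock elements, which are inverted repeats of the unit GAA.

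Of the 9 genes, 4 had a peak of the thresholded list in the window, namely cct-8, hsp-90, hsp-60 and cct-1. That list holds 534 peaks, which were the 534 pooled regions of highest signal, and 2.73% of all protein-coding genes had one of them in the same window. The members' windows were longer, with a median of 5260 bp against 4027 bp over all protein-coding genes, and carried more candidate regions per kb, with a median of 0.721 against 0.278 in the pooled list. All 9 members had a candidate region of the pooled list, as did 69.6% of protein-coding genes. The pooled list and both replicate lists each hold 30000 regions, peaks together with background, so a candidate region is not by itself a peak.

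Signal is the authors' value for the strength of a region, and it is comparable only within a list. The median signal was 28.0 in the pooled list, 22.6 in replicate 4 and 9.86 in replicate 5. The lists carry no read counts, so depth is unknown and no error can be given for a single signal. The spread between replicates is therefore shown by giving the value and rank in each replicate list, where rank 1 is the strongest region. With 1 group and no comparison between conditions, no test was made.

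**Figure D1:**
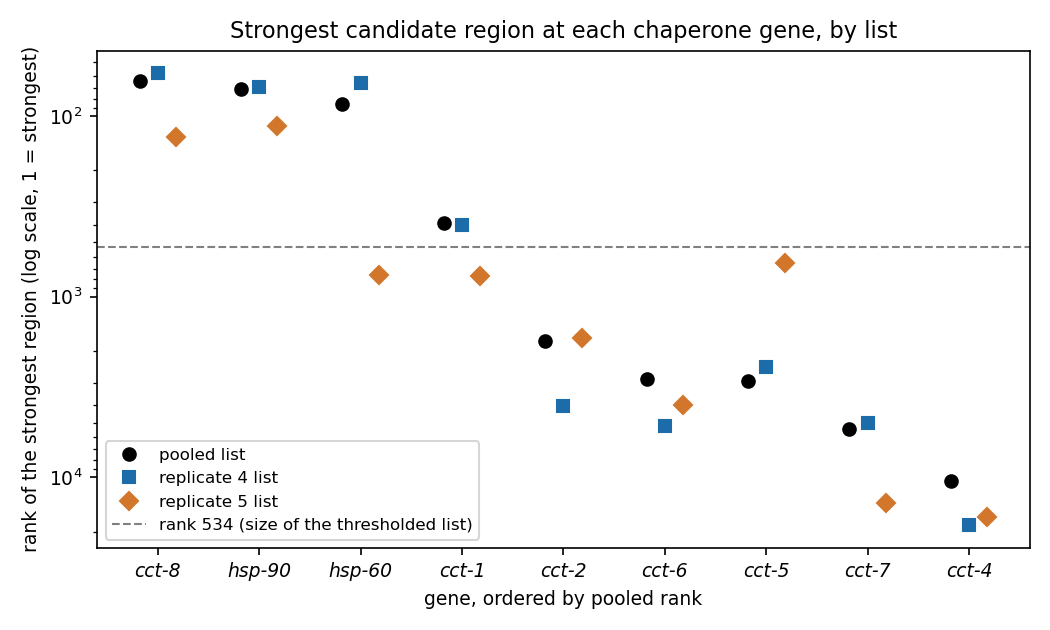
Rank of the strongest candidate region in the window of each gene (log scale, 1 = strongest) in the pooled list (circles), the replicate 4 list (squares) and the replicate 5 list (diamonds). The dashed line marks rank 534, the size of the thresholded list; cct-8 and hsp-90 lie above it in all 3 lists, hsp-60 and cct-1 in the pooled and replicate 4 lists, and the other 5 genes in none.

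The strongest of these peaks lay by cct-8, which encodes the theta subunit of the CCT chaperonin (WBGene00021934, chrIV:1087108-1093920, minus strand). The peak (chrIV:1094135-1094578) had a signal of 160.3 in the pooled list, 124 in replicate 4 and 36.3 in replicate 5, at ranks 64, 58 and 131. Its summit lay 437 bp upstream of the cct-8 start in the pooled list, and the strongest summits of the replicate lists lay 40 bp apart. Only 0.35% of protein-coding genes had a stronger pooled region in their window. No other region in the cct-8 window came near it: the next in the pooled list had a signal of 21.7, in an intron 3463 bp downstream of the start, at rank 26625.

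hsp-90 encodes cytosolic HSP90 (WBGene00000915, chrV:14684918-14688545, plus strand). Its peak (chrV:14685544-14685987) had a signal of 154 in the pooled list, 117 in replicate 4 and 37.5 in replicate 5, at ranks 71, 69 and 114. The summits of the replicate lists lay 24 bp apart. The gene has 2 annotated transcripts, and the position of the peak depends on which start is taken. The summit lay 848 bp downstream of the gene start, in the first intron of the longer transcript, and 394 bp upstream of the start of the shorter one.

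hsp-60 encodes the mitochondrial chaperonin (WBGene00002025, chrIII:1619742-1625803, plus strand). Its peak (chrIII:1618895-1619338), 625 bp upstream of the gene start, had a signal of 144 in the pooled list and 118 in replicate 4, at ranks 86 and 66. In replicate 5 the signal was 22.5, at rank 756, so the peak was outside the 534 strongest regions of that list. The position was shared, with summits of the replicate lists 21 bp apart. The signal was 5.21 times the median of its own list in replicate 4 and 2.28 times in replicate 5. Each ratio describes standing within its own list of peaks and background.

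cct-1 encodes the alpha subunit of the chaperonin (WBGene00000377, chrII:8185443-8187601, plus strand). Its peak (chrII:8184947-8185390) was the weakest of the 4, with a pooled signal of 82.2 at rank 389, and its summit lay 274 bp upstream of the start. For scale, the lowest signal in the thresholded list was 74.7. Replicate 4 had a single region there, with a signal of 62.7 at rank 401 and its summit 211 bp upstream. Replicate 5 had a pair of overlapping regions, one of 22.4 at rank 766 with its summit 494 bp upstream and one of 19.8 at rank 1274 with its summit 277 bp upstream. The stronger of that pair had its summit in an intron of the neighbouring gene mig-5, 283 bp from the replicate 4 summit.

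**Figure D2:**
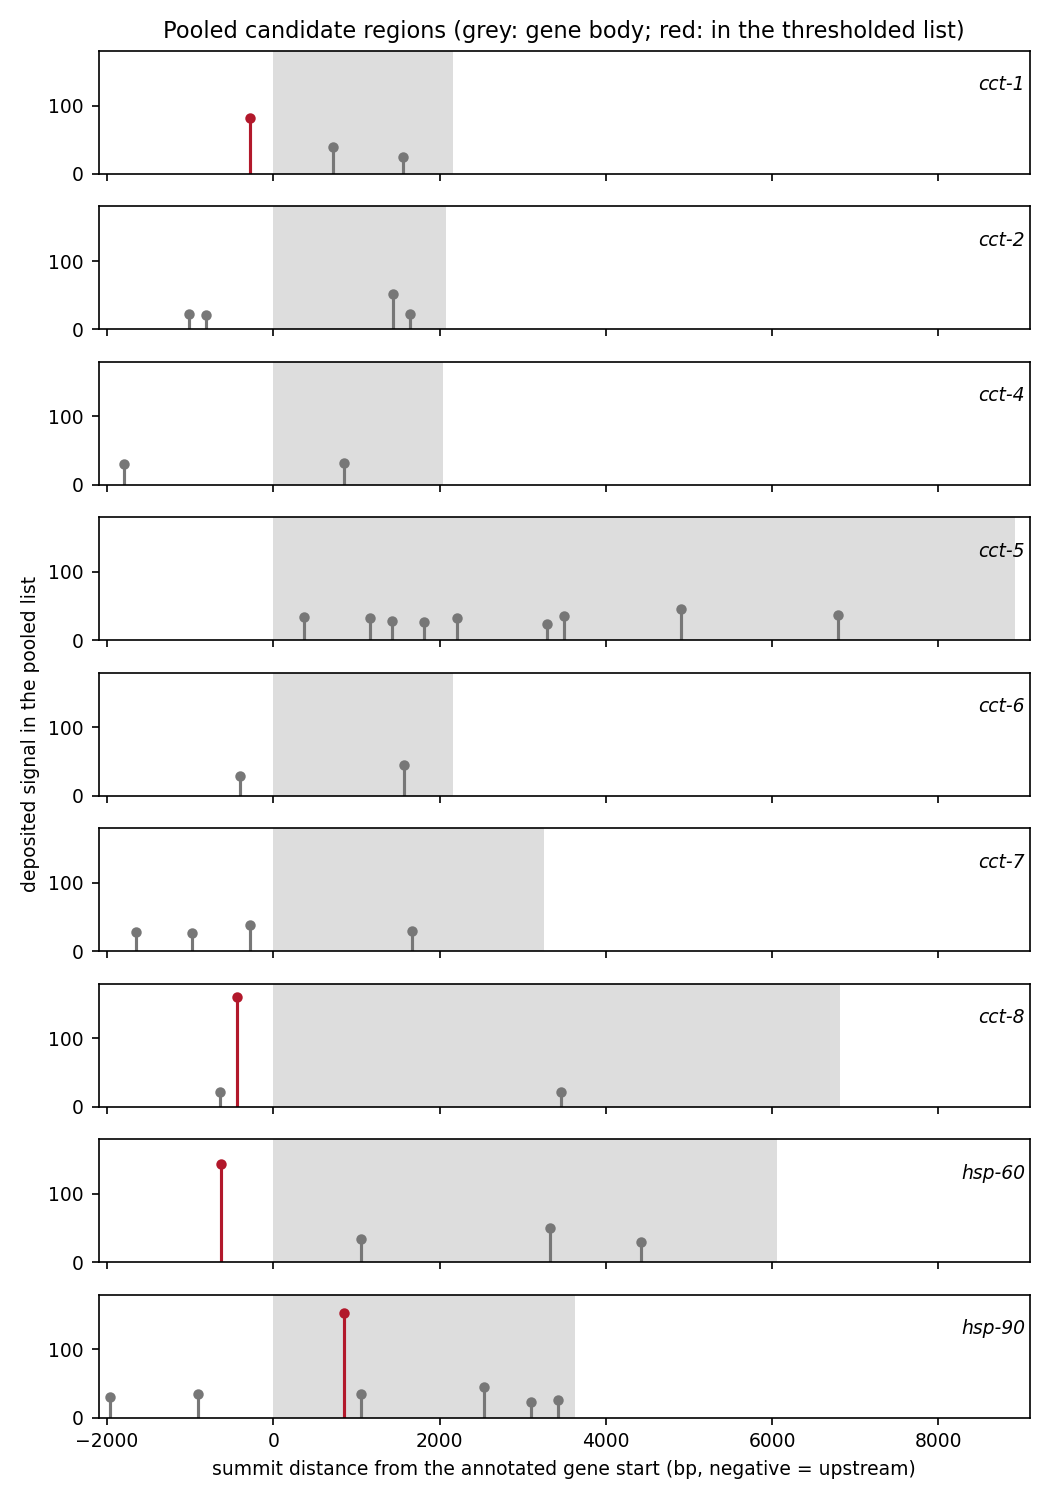
Pooled candidate regions at the 9 genes. Each stem stands at the distance of a summit from the annotated gene start (bp, negative is upstream) and its height is the deposited signal; grey shading is the gene body, and red marks the thresholded list. The 4 red stems have signals of 82.2 to 160.3, and no grey stem passes 51.8.

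The peaks of cct-8, hsp-60 and cct-1 lay between a pair of genes that are transcribed away from each other. The hsp-90 peak lay inside hsp-90 by its longer transcript, and between the starts of C47E8.4 and the shorter hsp-90 transcript. In all 4 the summit was closer to the partner's start than to the nearest start of the member. At cct-8 the summit was 437 bp from the cct-8 start and 184 bp from that of Y55F3AR.2, which encodes a thioredoxin domain protein per RefSeq. At cct-1 the distances were 274 bp to cct-1 and 146 bp to mig-5, which encodes a Dishevelled protein of Wnt signalling. At hsp-90 they were 394 bp to the nearer hsp-90 start and 281 bp to C47E8.4, a FAM50 homolog per RefSeq. Each of these partners has the peak in its own window too, so the lists do not assign a peak to one gene of a pair. Many C. elegans messages are trans-spliced, which hides the true start of transcription, so annotated starts can lie downstream of it.

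The partner of hsp-60 is itself a chaperonin gene. Y22D7AL.10, the annotated 10 kDa mitochondrial heat shock protein (HSP10), starts 188 bp from the summit and runs the opposite way, and the hsp-60 start is 625 bp from it. The space between their starts is 812 bp long and held 1 region in the pooled list, 1 in replicate 4 and 1 in replicate 5. The genes for HSP60 and HSP10 are arranged head to head in human as well. No other protein-coding gene had this summit in its window.

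Head-to-head arrangement alone did not set these 4 genes apart from the other members. All 9 members had a protein-coding start on the other strand within 2000 bp upstream of one of their transcript starts, against 28.5% of protein-coding genes. Among the 5692 genes with such a partner, 2.79% had a thresholded summit between the starts, and 24.5% had a pooled candidate summit there. Of the members, 4 had a thresholded summit between the starts and 6 had a pooled candidate summit. The space had a median length of 620 bp in members and 734 bp in all genes with a partner.

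**Figure D3:**
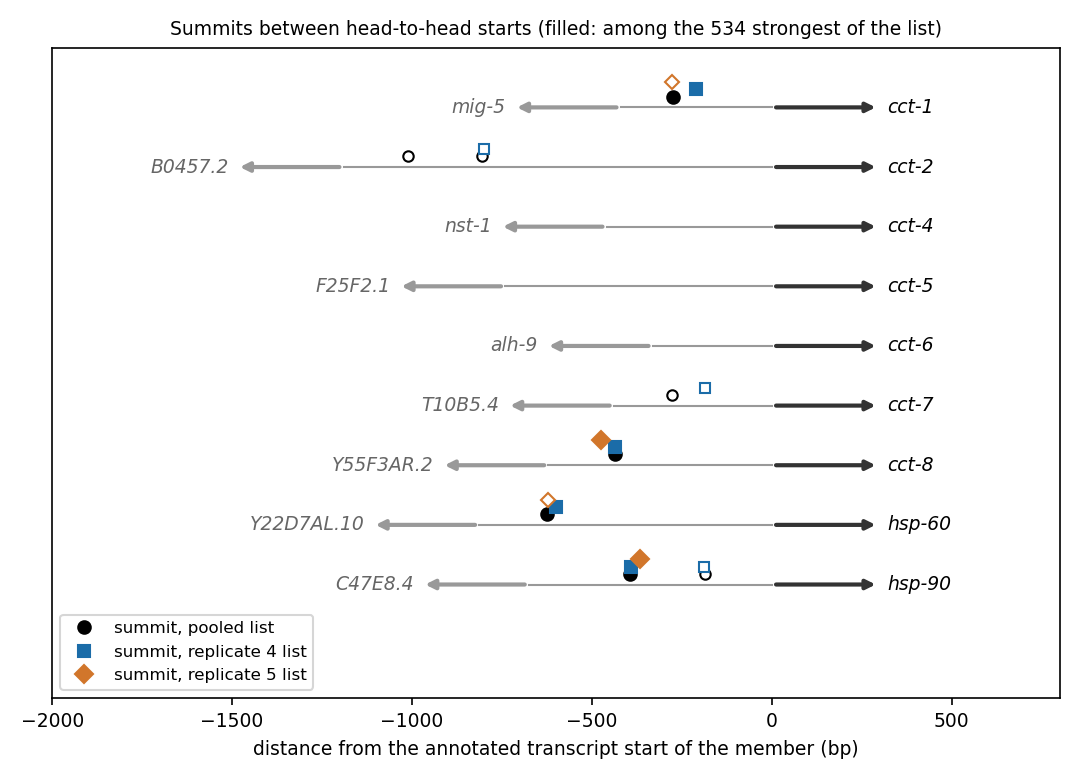
Summits between the start of each member (black arrow, at 0 bp) and the start of its head-to-head partner (grey arrow), in bp from the member's transcript start. Circles, squares and diamonds are the pooled, replicate 4 and replicate 5 lists, and filled marks are among the 534 strongest regions of the list. cct-4, cct-5 and cct-6 have no summit between the starts in any of the 3 lists.

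The other 5 chaperonin subunit genes had no thresholded peak, and their strongest pooled regions lay at ranks 1761 to 10456. In 4 of them that region was inside the gene rather than at its start. cct-2, the beta subunit (WBGene00000378, chrII:8927741-8929815, plus strand), had a pooled signal of 51.8 in exon 3, 1446 bp downstream of the start, at rank 1761. In the replicate lists the strongest cct-2 region had a signal of 33.3 at rank 4005 in replicate 4 and 18.5 at rank 1699 in replicate 5. The summit was also in the windows of mrpl-50, a mitochondrial ribosomal protein gene, and enol-1, which encodes the glycolytic enzyme enolase, and the mrpl-50 start was the nearest, at 654 bp. Between cct-2 and its partner B0457.2 the strongest pooled region had a signal of 22.4, at rank 24951, and replicate 5 had none.

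cct-6, the zeta subunit (WBGene00000381, chrIII:5853530-5855687, minus strand), had a pooled signal of 45.4 in exon 6, 1577 bp downstream of the start, at rank 2871. Both replicate lists had a region at that place, with summits 8 bp apart, a signal of 31.3 at rank 5201 in replicate 4 and 15.0 at rank 3977 in replicate 5. The nearest start was that of ddx-23, a DEAD box helicase gene downstream of cct-6, at 841 bp. The summit also fell in the window of alh-9, the aldehyde dehydrogenase gene that starts upstream of cct-6. A weaker pooled region, of signal 29.8 at rank 12567, lay 396 bp upstream of cct-6 in the 5′ UTR of alh-9, past that gene's start.

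cct-5, the epsilon subunit (WBGene00000380, chrIII:4499188-4508114, minus strand), is the longest member and had the most pooled regions, 9, all inside the gene. The strongest had a signal of 45.2 in an intron, 4901 bp downstream of the start, at rank 2928. The replicates did not share a strongest place: in replicate 4 it lay 6758 bp downstream of the start with a signal of 37.7 at rank 2440, and in replicate 5 it lay 3347 bp downstream with a signal of 23.4 at rank 650. The summits of those regions were 3411 bp apart. The replicate 5 summit lay in no region of the replicate 4 list.

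cct-7, the eta subunit (WBGene00020391, chrV:1872246-1875505, plus strand), was the only one of the 5 whose strongest pooled region lay between the starts of the member and its partner. Its summit was 278 bp upstream of cct-7 and 161 bp from the start of T10B5.4, an acetyltransferase gene per RefSeq, and the non-coding RNA gene T10B5.13 also had the summit in its window. The pooled signal was 38.5 at rank 5417, and the replicate 4 signal was 31.6 at rank 4988. Replicate 5 had no region there, and its strongest region in the cct-7 window had a signal of 10.1 at rank 13951, 1538 bp upstream. cct-4, the delta subunit (WBGene00000379, chrII:8283667-8285711, plus strand), had the lowest values. Its strongest pooled region had a signal of 31.7 in an intron at rank 10456, and nst-1 also had that summit in its window. The strongest region in the cct-4 window lay at rank 18419 in replicate 4 and 16511 in replicate 5, with summits 3492 bp apart. In both replicate lists those cct-4 signals, 20.8 and 9.49, were below the median of the list.

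Over all 9 windows the pooled list held 38 regions, of which 12 had their summit in a coding exon of the member, 13 in an intron and 13 outside the member. Of these 38 summits, 18 fell within regions listed in both replicates, 13 within regions of replicate 4 alone, 5 within regions of replicate 5 alone and 2 in neither. Secondary regions at hsp-90 and hsp-60 ranked differently in the replicates. At hsp-90 the next strongest pooled region had a signal of 44.8 at rank 3039, in an exon 2540 bp downstream of the gene start. The replicate 4 region covering that summit had a signal of 47.5 at rank 1004, and replicate 5 had no region there. Further on, 3128 bp downstream of the gene start, replicate 5 had an exonic region with a signal of 23.9 at rank 603. The replicate 4 region that covers this summit had its own summit 3352 bp downstream and stood at rank 7614. At hsp-60 a pooled region of signal 50.7 at rank 1929 lay in exon 4, 59 bp upstream of the start of the shortest annotated transcript, with ranks of 2744 in replicate 4 and 9582 in replicate 5.

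Replicate 4 ranked all 4 peaks among its 534 strongest regions, and replicate 5 ranked those of cct-8 and hsp-90 there. The share of protein-coding genes with such a region in the window was 2.65% in replicate 4 and 2.72% in replicate 5. No replicate ranked any of the other 5 genes among its 534 strongest. The closest was cct-5 at rank 650 in replicate 5.

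**Figure D4:**
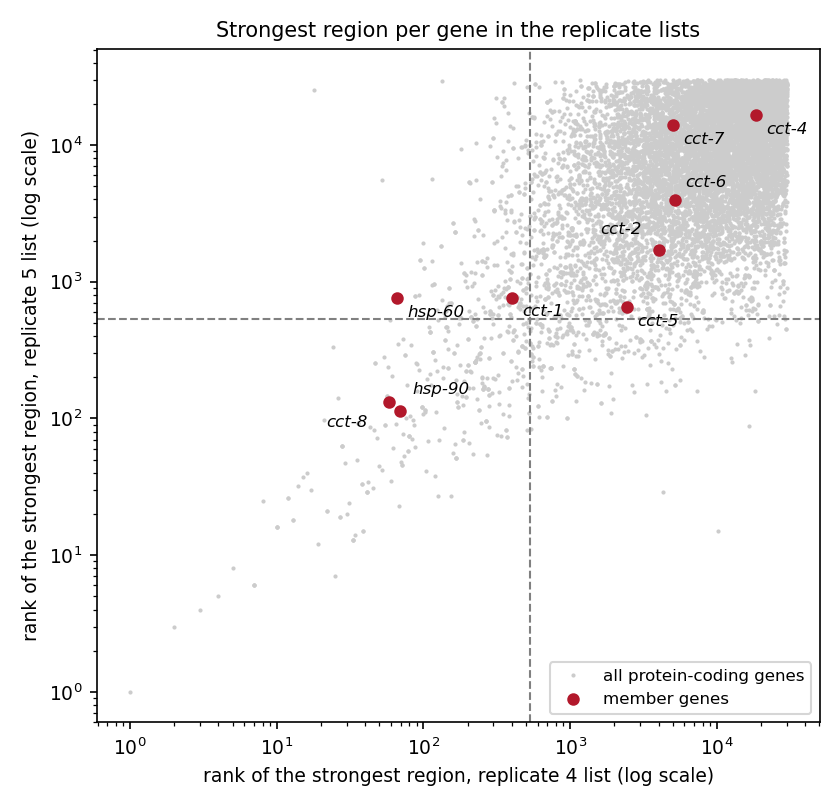
Rank of the strongest region in each gene's window in the replicate 4 list (horizontal, log scale) and the replicate 5 list (vertical, log scale), for protein-coding genes with a region in both lists (grey) and the 9 members (red). Dashed lines mark rank 534; cct-8 and hsp-90 lie inside both lines, hsp-60 and cct-1 inside the replicate 4 line only.

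The sequence at the summits is shown for the 4 peaks, and for cct-7. That gene was the only member without a thresholded peak whose strongest pooled region lay between the starts. Each is the pooled summit with 100 bp on either side, read from the RefSeq copy of WBcel235 on the strand of the member, 5′ to 3′. Capitals mark matches on either strand to any motif searched. The windows are chrIV:1094257-1094457 (minus strand), chrV:14685666-14685866, chrIII:1619017-1619217, chrII:8185069-8185269 and chrV:1871868-1872068 (the last 4 on the plus strand), and none overlaps an annotated UTR.
cct-8: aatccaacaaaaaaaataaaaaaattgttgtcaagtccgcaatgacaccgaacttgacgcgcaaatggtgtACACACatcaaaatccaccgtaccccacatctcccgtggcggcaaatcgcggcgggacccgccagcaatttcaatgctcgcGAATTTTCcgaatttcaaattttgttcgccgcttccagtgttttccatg
hsp-90: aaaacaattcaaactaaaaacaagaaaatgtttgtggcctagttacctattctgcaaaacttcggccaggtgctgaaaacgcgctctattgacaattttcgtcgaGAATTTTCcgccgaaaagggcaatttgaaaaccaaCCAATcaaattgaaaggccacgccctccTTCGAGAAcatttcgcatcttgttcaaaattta
hsp-60: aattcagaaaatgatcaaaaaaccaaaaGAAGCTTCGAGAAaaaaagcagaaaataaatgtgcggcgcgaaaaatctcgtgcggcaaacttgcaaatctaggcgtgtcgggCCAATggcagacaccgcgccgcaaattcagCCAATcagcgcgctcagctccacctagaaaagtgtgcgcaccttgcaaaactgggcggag
cct-1: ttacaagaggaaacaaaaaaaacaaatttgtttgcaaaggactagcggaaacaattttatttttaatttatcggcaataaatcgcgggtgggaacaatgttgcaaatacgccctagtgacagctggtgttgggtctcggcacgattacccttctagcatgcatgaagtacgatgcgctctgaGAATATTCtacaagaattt
cct-7: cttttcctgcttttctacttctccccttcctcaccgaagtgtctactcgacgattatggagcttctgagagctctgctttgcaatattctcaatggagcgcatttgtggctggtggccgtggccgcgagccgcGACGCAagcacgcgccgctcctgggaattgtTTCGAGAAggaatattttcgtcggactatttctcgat

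The motifs searched were those enriched among all thresholded peaks in an earlier analysis of these data, the 6-mer AGAGAC, then ACGCAG with the related GACGCA, and the repeats named GAGAGA and also ACACAC. To these were added the heat shock element cores TTCNNGAA and GAANNTTC. Both strands were read. After the windows had been seen, a longer element that joins GAANNTTC and TTCNNGAA over a shared TTC, and the CCAAT box, were added. All of the 6-mers but ACACAC were in none of the 4 windows. Among the 534 thresholded windows of the same length, AGAGAC was in 28.7%, GAGAGA in 36.7% and ACGCAG in 21.7%. In other pooled windows those shares were 9.52%, 15.0% and 6.20%. Most thresholded windows thus lacked any given 6-mer, so absence from 4 windows does not set these peaks apart. ACACAC was in 1 of the 4, at cct-8, starting 29 bp before the summit, and in 28.1% of thresholded and 9.50% of other pooled windows. The cct-7 window held 1 GACGCA, starting 33 bp past the summit, and that 6-mer was in 19.9% of thresholded and 6.42% of other pooled windows.

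Within 50 bp of the summit the core GAANNTTC was in 1 of the 4 peaks, hsp-90, where GAATTTTC started 5 bp past the summit, and in none of the other 5 members. It was in 6.37% of thresholded and 6.03% of other pooled windows of that length. Within 100 bp, a width chosen after seeing the data, it was in all 4 peaks and again in none of the other 5 members, against 10.9% of thresholded and 11.99% of other pooled windows. These windows differ in kind. The 4 peaks lay between head-to-head starts, but the summits read at cct-2, cct-4, cct-5 and cct-6 lay in a coding exon or intron. At cct-8 GAATTTTC started 52 bp past the summit and at cct-1 GAATATTC started 82 bp past it. At hsp-60 the core was part of the longer element, GAAGCTTCGAGAA, which started 72 bp before the summit. That longer element was in 2.62% of thresholded and 1.16% of other pooled windows. TTCNNGAA was in none of the 9 members within 50 bp of the summit, against 4.87% of thresholded and 6.06% of other pooled windows. Within 100 bp it was in hsp-60, hsp-90 and cct-7, against 8.99% of thresholded and 12.1% of other pooled windows.

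CCAAT was in the windows of hsp-60, with 2 copies starting 11 and 41 bp past the summit, and hsp-90, with 1 copy starting 40 bp past it, and in those of cct-2 and cct-4 among the other members. It was in 29.6% of thresholded and 37.8% of other pooled windows. Base composition varied among the peaks. Within 50 bp of the summit GC made up 56.4% at cct-8, 53.5% at hsp-60, 43.6% at cct-1 and 42.6% at hsp-90, against medians of 48.5% in thresholded and 40.6% in other pooled windows. These matches describe letters in a window and were not tested.

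Other genes of the folding pathway were read from a list of 40 names, of which 38 matched a gene name in the annotation. A name without a match may stand for a gene annotated under another name. Of these 38, 4 had a thresholded summit in the window. Y22D7AL.10 was counted through the hsp-60 peak described above. The others were pfd-1, a subunit of prefoldin, which hands unfolded actin and tubulin to the CCT chaperonin, and the substrates tba-1 (alpha tubulin) and act-4 (actin). The pfd-1 peak had a pooled signal of 79.4 at rank 437 and lay 953 bp upstream, in the windows of C08F8.2, F01G4.6 and pigq-1 as well. The tba-1 peak had a signal of 134 at rank 98 and lay 1069 bp upstream, also in the window of cox-5B, a cytochrome c oxidase subunit gene, and of the genes F26E4.14 and F26E4.16. The act-4 peak, inside that gene 1803 bp downstream of its start, had a signal of 75.7 at rank 513.

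By class, a thresholded summit was found at 1 of 6 prefoldin genes, 2 of 9 tubulin and actin genes and 1 of 3 genes in the class of HSP10 and mitochondrial import. It was found at 0 of 8 HSP90 co-chaperone genes and 0 of 7 stress response regulators, hsf-1 and atfs-1 among them. None was found at enpl-1 and hsp-75 of the HSP90 family, or at trap-1, which the list placed with them by name. These classes are small, and 2.73% of all protein-coding genes had such a summit. The remaining CCT subunit gene, cct-3, named here after its values were seen, had no thresholded peak. Its strongest pooled region had a signal of 40.4 at rank 4531 and lay 9996 bp downstream of the start, at the end of the gene. So cct-8 and cct-1 were the CCT subunit genes, of those examined, with a thresholded peak in their window.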

How the data were processed

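ChIP-seq regions of 2 samples, replicates 4 and 5 of 1 group, were used as deposited. Per the file headers (the text records deposited beside the lists), each replicate list was derived from that sample's alignments and 1 control, the pooled list from both samples, and the thresholded list from these by the irreproducible discovery rate. The deposited signal, −log10 q and summit offset are the authors' values; the sources used here name neither aligner nor caller. Depth is unknown.

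Coordinates are on ce11 per the labels, written 1-based, and were placed on WBcel235 with Ensembl release 115; 0 regions lay beyond a chromosome end. Regions were ranked by signal within each list (Python 3.11.15, pandas 2.3.3, numpy 2.4.6; figures with matplotlib 3.10.9). Window assignment was tested on simulated summits. Share of genes was counted over all protein-coding genes with the same 2000 bp rule.

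The members, motifs and lists were chosen with earlier results of these data known. The text names all 9 members, the genes sharing their strongest pooled regions, and listed pathway genes with a thresholded peak. Alternatives changed the window, the summit rule, the list and the replicates used.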

Additional observations from a re-analysis of the deposited data

How the results depend on the processing

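The count of 4 members with a thresholded summit was 3 with a window of 1000 bp upstream to 200 bp downstream of the gene start, with 500 bp upstream to the gene end, and in the peaks at or above the median thresholded signal of 95.1, and 4 by region overlap. It was 1 (hsp-90) from gene start to gene end alone, and 0 when the nearest annotated start had to be the member's. It was 2 (cct-8 and hsp-90) among regions strongest in both replicates. Leaving out a replicate gave 2 to 4: 2 without replicate 4, where cct-1 and hsp-60 dropped out, and 4 without replicate 5. The count of 9 members with a pooled candidate summit was 7 to 9 under every alternative run. The median over members of the strongest pooled signal, 51.8, was 38.5 in the window to 200 bp downstream (7 members), 50.7 with 500 bp upstream, 45.2 in the gene alone, 34.8 by nearest start (7 members) and 67.0 for summits in a region of both replicates (8 members). In that last setting no member's value rose: cct-4, the lowest member, had no such region and dropped out, and cct-7 was at 28.5 in place of 38.5. With 100 bp in place of 50 bp on either side of the summit, a width chosen after seeing the data, GAANNTTC was in 4 rather than 1 of the thresholded members' windows and TTCNNGAA in 2 rather than 0. No paired analysis was possible because the study has 1 group. The lists give no counts, so depth sets no stated limit on any value.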
